A study of Mus musculus with 2 samples.

Results

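The Toll-like receptors and their co-receptors were examined on 2 Affymetrix Mouse Genome 430 2.0 arrays, 1 hybridised with RNA from the small intestine and 1 with RNA from the colon of wild-type adult mice. The 10 members were Tlr1, Tlr2, Tlr3, Tlr4, Tlr5, Tlr6, Tlr7, Tlr9, Cd14 and Ly96, taken by gene symbol from the annotation of the array platform. They made up 10 of 18194 named genes and 16 of 34958 probe sets with 1 gene name, a probe set being a group of short oligonucleotides that reads 1 transcript. All 10 were measured, 7 of them by a single probe set. The tissues were biopsies with no sorting of cells, both arrays carried wild-type adult RNA with no treatment named, and the labels give neither the strain nor the number of mice behind an array. The methods of the study name jejunum and distal colon of C57B6 mice, but they cite a different deposit for their arrays, and the sources used here do not say whether this holds for these arrays. The arrays were made as a companion to expression data of other methods, and the design allows the small intestine to be set against the colon. Each tissue had 1 array, so no value below has a replicate, no test was made, and a gene is called higher in a tissue only by a fixed fold of 3.

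Toll-like receptors are membrane proteins that recognise molecules shared by many microbes. Those at the cell surface read components of the bacterial wall and flagella, and those in endosomes read nucleic acids. Most signal through the adaptor Myd88 to NF-kappaB, and they occur in the gut on macrophages, dendritic cells, lymphocytes, stromal cells and part of the epithelium. Because the tissue was whole, fewer cells of a type and less RNA per cell cannot be told apart.

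Tlr1 and Tlr2, which read bacterial lipopeptides, and Tlr4 and Cd14, which read lipopolysaccharide, were higher in the colon, and no member was higher in the small intestine. Levels are given as log2 expression, and a level of 5 or less was treated as background and raised to 5 before a difference was taken. By this rule none of the 10 members was 3-fold higher in the small intestine, against 3.46% of all named genes. Towards the colon 4 of the 10, namely Tlr1, Tlr2, Tlr4 and Cd14, reached 3-fold, against 3.33% of all named genes. At 2-fold the same 4 members were higher in the colon, against 8.14% of all genes, and at 5-fold 3 were, without Cd14, against 1.43%. Of the 16 probe sets 4 reached 3-fold in the colon, against 2.66% of all named probe sets. The median difference of the 10 members, small intestine minus colon, was -0.75, and that of all named genes was 0. Another 4 members, Tlr5, Tlr6, Tlr7 and Tlr9, lay at or below background on both arrays, as did 7178 of the 18194 named genes. No fold can be given for these 4 members.

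**Figure D1:**
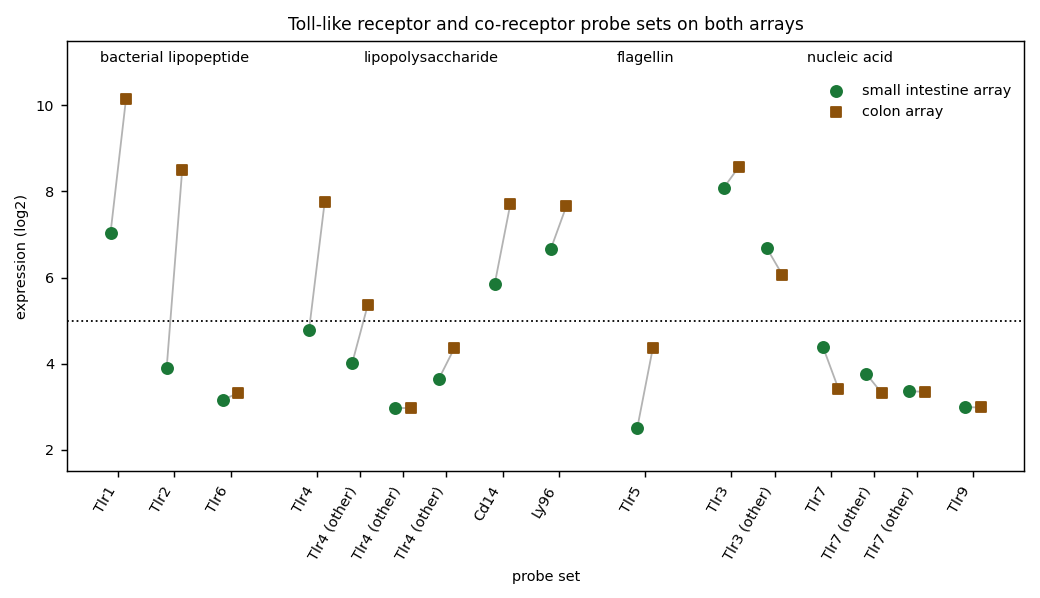
Log2 expression of the 16 probe sets of the members in the small intestine (circles) and in the colon (squares), grouped by the kind of ligand, where the dotted line marks background. The brightest probe set of each gene carries its name alone, and Tlr1, Tlr2, Tlr4 and Cd14 show the steepest lines among the probe sets that reach above background.

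Tlr2 recognises bacterial lipopeptides as a pair with either Tlr1, for triacylated ones, or Tlr6, for diacylated ones. Its 1 probe set (1419132_at) had 3.89 in the small intestine, against 8.50 in the colon, which places the small intestine below background and makes the colon at least 11.3-fold higher. Tlr1 (1449049_at) had 7.03 in the small intestine, against 10.16 in the colon, so it was above background in both tissues and 8.74-fold higher in the colon. Tlr6, a close relative of Tlr1 in sequence and its neighbour on chromosome 5 in the RefSeq gene table, had 3.16 in the small intestine, against 3.32 in the colon. Both Tlr6 values were thus at background, and of the 2 partners of Tlr2 only Tlr1 was above background on these arrays.

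The 250 bases before an annotated start of each of these 3 genes are shown because Tlr1 and Tlr2 had the largest colon differences of the members while Tlr6, next to Tlr1 in the genome, was at background. The sequences are from RefSeq, build GRCm38.p6, 5′ to 3′ in the direction of the gene, and all lie on the minus strand. Capitals mark matches to 1 of 3 motifs searched on both strands, namely NF-kappaB, PU.1 (GAGGAA) and AP-1 (TGANTCA). An interferon response motif was searched as well and its matches are not reported here, so that statements of no match cover these 3 motifs alone.
Tlr2, chr3:83841609-83841858: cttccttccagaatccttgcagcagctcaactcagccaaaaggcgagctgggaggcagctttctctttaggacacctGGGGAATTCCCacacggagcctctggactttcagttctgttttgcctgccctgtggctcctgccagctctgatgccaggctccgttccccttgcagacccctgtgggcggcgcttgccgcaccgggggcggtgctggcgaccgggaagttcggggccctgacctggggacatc
Tlr1, chr5:64933559-64933808: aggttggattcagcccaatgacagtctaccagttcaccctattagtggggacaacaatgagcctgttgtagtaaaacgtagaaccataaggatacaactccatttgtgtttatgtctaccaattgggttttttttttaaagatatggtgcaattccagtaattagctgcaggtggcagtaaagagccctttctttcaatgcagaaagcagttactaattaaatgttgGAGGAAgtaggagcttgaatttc
Tlr6, chr5:64959167-64959416: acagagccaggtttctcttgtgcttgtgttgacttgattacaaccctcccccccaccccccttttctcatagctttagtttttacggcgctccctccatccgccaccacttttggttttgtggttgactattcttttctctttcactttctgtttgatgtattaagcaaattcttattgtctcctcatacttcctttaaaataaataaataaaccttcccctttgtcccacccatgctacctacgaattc

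The Tlr2 window held an NF-kappaB motif, whose overlapping matches on both strands run over 11 bases that end 163 bases before the start. Such a motif occurred in 7.25% of 32851 windows of the same length. The Tlr1 window shown held a PU.1 motif 23 to 18 bases before the start, found in 23.3% of all windows. A second annotated start of Tlr1, not shown, had no match to the 3 motifs, so the Tlr1 window shown is the one with a match. Neither the Tlr6 window shown nor the other Tlr6 window had a match to the 3 motifs. Of the other members whose windows were searched, Tlr3 had an NF-kappaB motif, Tlr9 a PU.1 and an AP-1 motif, and Tlr5 none. Cd14 was left out of this search, and no window was at hand for Tlr4, Tlr7 and Ly96, so nothing is said of the windows of these genes. These matches describe letters in a window and not sites in use.

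Lipopolysaccharide is read by Tlr4 together with Ly96 (MD-2), which binds the lipid, and Cd14, which hands the lipid over. The brightest of the 4 probe sets of Tlr4 (1418162_at) had 4.79 in the small intestine, against 7.75 in the colon, so that the colon was at least 6.73-fold higher. The small intestine value lay only just below the background level. A second probe set taken from the same transcript record had 4.02 in the small intestine, against 5.37 in the colon, so it also stood above background in the colon alone, by a bound of 1.29-fold. The other two probe sets were at background on both arrays, with 2.97 and 3.64 in the small intestine, against 2.97 and 4.35 in the colon. With the median over its probe sets the floored difference of Tlr4 was 0, so the call for Tlr4 rests on its brightest probe set.

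Cd14 (1417268_at) had 5.86 in the small intestine, against 7.70 in the colon, a 3.59-fold difference towards the colon. This was the smallest of the 4 called differences. Ly96 had 6.67 in the small intestine, against 7.66 in the colon, a 1.99-fold difference that is under the 3-fold rule. All 3 parts of the lipopolysaccharide receptor were therefore lower on the small intestine array, of which 2 reached 3-fold.

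**Figure D2:**
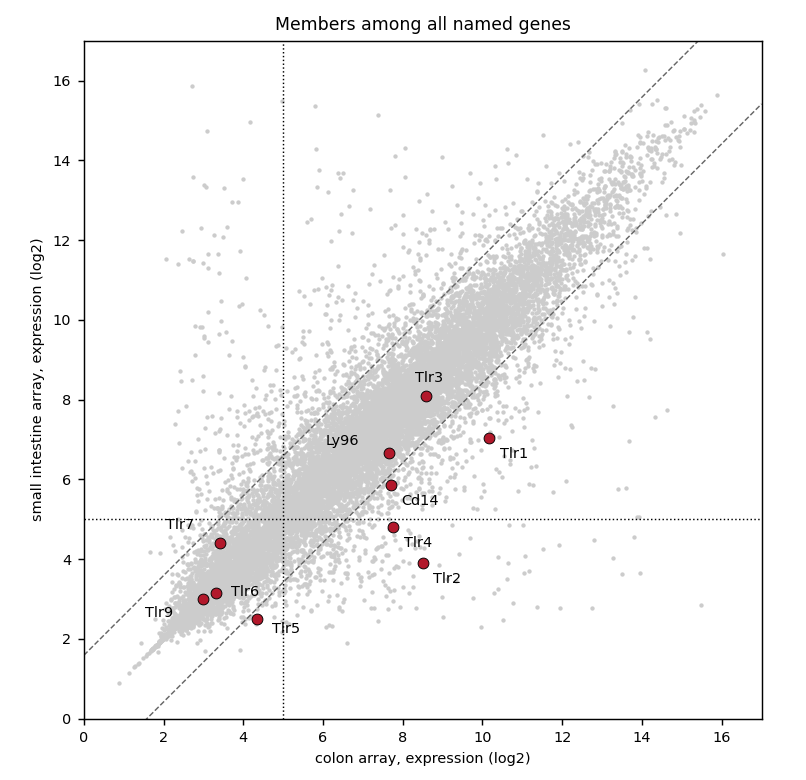
Each grey point is 1 of 18194 named genes, plotted as log2 expression, with the small intestine array upright and the colon array across. Red points are the 10 members, dashed lines mark 3-fold and dotted lines the background level of 5. Tlr1, Tlr2, Tlr4 and Cd14 lie below the lower dashed line in the region above background on the colon array, and Tlr5 lies below it with both values at background.

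The flagellin receptor Tlr5 had 2.50 in the small intestine, against 4.36 in the colon. Both values were under background, and the difference of -1.85 before any floor was the only one among the 4 dim members past 3-fold. No fold is given, since values in this range follow the background correction.

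Among receptors for nucleic acids, Tlr3, which reads double-stranded RNA, was the only one above background. Its brightest probe set had 8.08 in the small intestine, against 8.58 in the colon, or 1.41-fold higher in the colon. Its second probe set had 6.69 in the small intestine, against 6.07 in the colon, or 1.53-fold higher in the small intestine. The 2 probe sets of Tlr3 thus pointed in opposite directions, by less than 3-fold each. Tlr7, a receptor of single-stranded RNA, had 4.40, 3.77 and 3.36 on its 3 probe sets in the small intestine, and 3.42, 3.32 and 3.35 in the colon. Tlr9, which reads unmethylated CpG DNA, had 2.99 in the small intestine, against 2.98 in the colon. Neither Tlr7 nor Tlr9 was detected above background in whole tissue of either region.

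The arrays differed in how far labelling reached towards the 5′ ends of transcripts, and this difference ran in the direction of the 4 calls. Poly-A spike-ins are bacterial transcripts added before labelling, and 4 of them were each read by 2 pairs of probe sets at the 5′ and the 3′ end. All 8 of the 5′ probe sets were lower in the small intestine, by a median of -2.30 with a range from -2.73 to -0.68, while the 3′ probe sets had a median of 0.26 and a range from -0.04 to 0.61. Of the mouse transcripts, Gapdh had a 5′ level of 9.31 in the small intestine, against 10.58 in the colon. Its 3′ level was 12.92 in the small intestine, against 12.90 in the colon. The 5′ level of Actb was 8.72 on both arrays, and that of 18S rRNA was 8.09 in the small intestine, against 7.79 in the colon. Of these 3 mouse transcripts 1 thus had a lower 5′ level in the small intestine. The 5′ level minus the 3′ level was lower in the small intestine for all 3. For Gapdh it was -3.61 in the small intestine, against -2.32 in the colon. For Actb it was -4.80 in the small intestine, against -4.46 in the colon, and for 18S rRNA -0.40, against 0.07. The hybridization spike-ins, which are added after labelling, had a median 5′ difference of -0.01 and a range from -1.52 to 0.21, with bioC as the one that differed at both ends. The distance of the Tlr1, Tlr2, Tlr4 and Cd14 probe sets from the 3′ ends of their transcripts is not stated in any source at hand. The difference of Tlr1, measured in both tissues, was -3.13, and that of Cd14 (-1.84) lay within the range of the 8 spike-in 5′ differences. Those of Tlr2 (-3.50) and Tlr4 (-2.75) are bounds set by the background level. With no floor they were -4.60 and -2.95, outside that range. At a background of 6, which makes a difference against a dim value smaller, they were -2.50 and -1.75, within that range. The spike-in differences were taken with no floor, although a pair of 5′ probe sets (4.93 and 4.40) lay below background in the small intestine. The part of this labelling difference in the 4 calls was not tested.

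**Figure D3:**
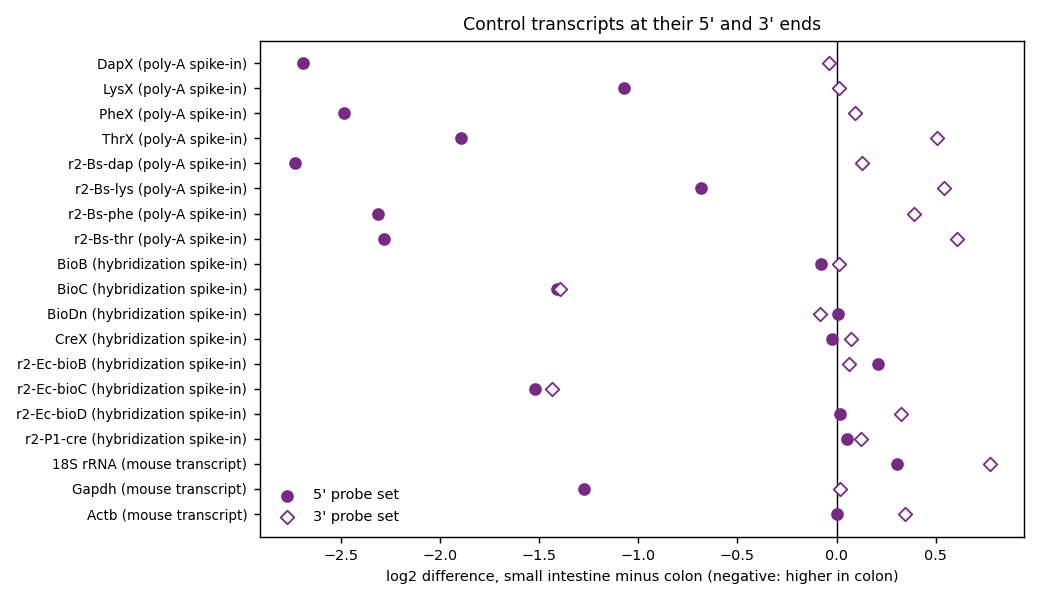
Log2 difference, small intestine minus colon, of control transcripts at the 5′ probe set (filled circles) and the 3′ probe set (open diamonds), for those with a 5′ level above background on either array. All 8 circles of the poly-A spike-ins lie at or below -0.68, while their diamonds lie between -0.04 and 0.61.

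Genes of the pathway around the receptors were spread to both sides, with list medians between 0 and 0.34. In 7 lists of relatives, accessory proteins, processing factors, adaptors, downstream factors, negative regulators and target genes, 99 of 110 entries were measured. Of these, 5 reached 3-fold towards the small intestine and 4 towards the colon, against 3.46% and 3.33% of all named genes. Their median difference was 0, the same as that of all named genes. None of the 13 measured adaptors and receptor-proximal kinases reached 3-fold, and their median was 0.33. Myd88, the adaptor used by most members, had 8.41 in the small intestine, against 7.77 in the colon, and Ticam1, the adaptor of Tlr3, had 7.57 in the small intestine, against 6.19 in the colon. None of 17 downstream kinases and transcription factors reached 3-fold either, with a median of 0.29. None of 5 other receptors and relatives did, with Tlr8 and Tlr13 at background in both tissues. Ly86, a relative of Ly96, had 7.36 in the small intestine, against 6.09 in the colon, a direction opposite to that of Ly96.

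Of 13 chaperones and processing factors only cathepsin L (Ctsl), a lysosomal protease that cleaves endosomal receptors, passed the rule, with 10.10 in the small intestine, against 12.55 in the colon (5.46-fold higher in the colon). The Ctsl difference was -1.53 with the median over probe sets, and 0 without probe sets whose names end in _x, _s or _a, marks for probes that match several transcripts of the same or of other genes. Hsp90b1 and Unc93b1, the chaperone and the trafficking factor of the receptors, had 13.24 and 6.76 in the small intestine, against 12.92 and 6.80 in the colon. Of 5 accessory proteins only Cd36, a scavenger receptor that assists Tlr2 with Tlr6 and also takes up fatty acids, passed, with 8.99 in the small intestine, against 7.35 in the colon (3.11-fold higher in the small intestine).

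Of 19 negative regulators 2 reached 3-fold towards the small intestine and 1 towards the colon. Socs3, an inhibitor of cytokine signalling, had 9.99 in the small intestine, against 7.83 in the colon (4.47-fold), but its value rests on probe sets marked _x, without which the difference was 0. Tollip, an inhibitor of Irak1, was 3.55-fold higher in the small intestine, with 8.17 in the colon. The nuclear receptor Pparg, which also governs fat storage, had 6.74 in the small intestine, against 10.74 in the colon (15.9-fold higher in the colon).

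Of 27 target genes 15 were at or below background on both arrays, against 7178 of the 18194 named genes. Among these 15 were Tnf, Il6, Il12b and Nos2, and 2 target genes were higher in each tissue. Reg3g, an antibacterial lectin, had 14.08 in the small intestine and was 34.0-fold higher there than in the colon. Reg3b was just under the rule by its brightest probe set, with 15.26 in the small intestine, against 13.69 in the colon (2.97-fold). Its other probe set was past the rule, with 15.43 in the small intestine, against 11.63 in the colon (13.9-fold). The chemokine Cxcl10 had 6.85 in the small intestine, against 4.78 in the colon (at least 3.60-fold), which was under 3-fold at a background of 6 (0.85). The serum amyloid Saa1 had 9.70 in the small intestine, against 13.67 in the colon (15.7-fold higher in the colon), and Saa2 had 6.17 in the small intestine, against 8.83 in the colon (6.32-fold higher in the colon). Saa1 and Saa2 are near-identical genes, so their values may not be separate. Target genes thus included bright genes in both directions.

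**Figure D4:**
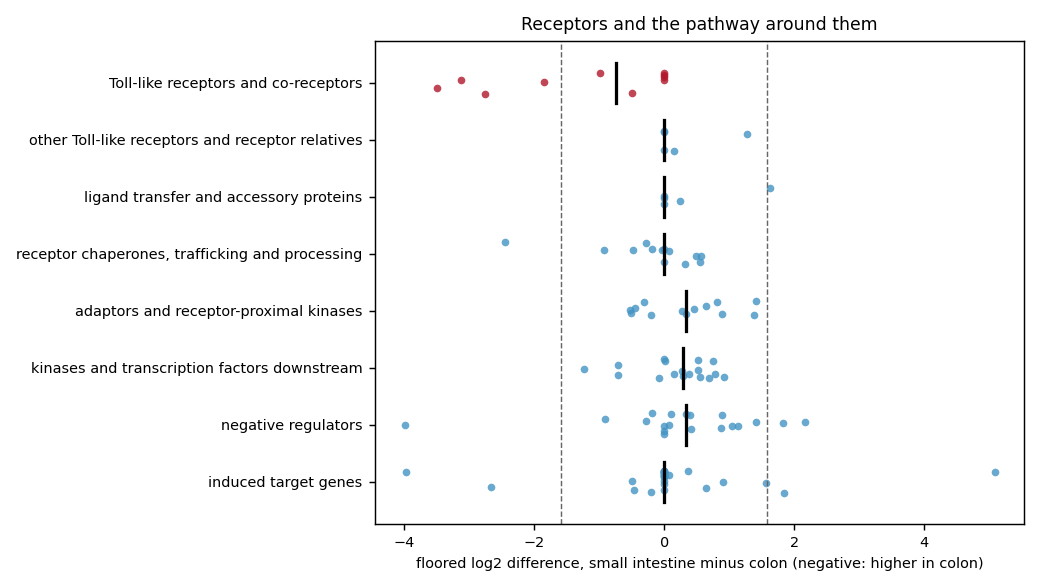
Each point is 1 gene of the members (red) or of 7 pathway lists (blue), placed by its floored log2 difference, small intestine minus colon, with black bars for medians and dashed lines for 3-fold. The member median is -0.75, and the medians of the pathway lists run between 0 and 0.34.

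The labelled tissues matched their defining genes, with Fabp1 at 15.36 in the small intestine, against 5.79 in the colon, and Car1 at 2.86 in the small intestine, against 15.49 in the colon. Markers of macrophages were not lower in the small intestine as a list, and their part in the levels of the members was not tested. None of their 16 measured genes reached 3-fold, and 3 were at background on both arrays. A higher value in the small intestine was found for 12, and in the colon for 4. Of these 4 Mrc1 differed most, with 6.65 in the small intestine, against 7.90 in the colon (2.37-fold). The sum of the linear levels of the list was 9521 in the small intestine, against 5930 in the colon. The receptor Csf1r, which macrophages need to survive, had 9.96 in the small intestine, against 9.22 in the colon, by its brightest probe set. Of its 3 probe sets the dimmest ran the other way, with 5.97 in the small intestine, against 6.31 in the colon. Of 8 neutrophil markers 7 were at background on both arrays, including S100a8, S100a9 and Elane. Of T cell markers 3 of 8 were higher in the small intestine, led by Cd3g (7.85-fold) and Cd3d (6.79-fold), and none was in the colon. Of B cell and dendritic cell markers 1 each was higher in the small intestine, namely Cd79b (3.82-fold) and Itgae (9.81-fold), which intraepithelial T cells carry as well. The dendritic cell factor Zbtb46 was at background on both arrays.

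Other cell types had markers that moved with the 4 calls. Of 9 smooth muscle markers 5 were higher in the colon, such as Cnn1 (4.26-fold) and Myh11 (3.86-fold), and their summed linear level was 8480 in the small intestine, against 22746 in the colon. Of 10 fibroblast markers 2 were higher in the small intestine, led by Fbln1 (5.76-fold), and 3 in the colon, led by Postn (9.68-fold), with sums of 7815 in the small intestine, against 14783 in the colon. Of 7 markers of glia and neurons 2 were higher in the colon, Snap25 (6.30-fold) and Stmn2 (3.02-fold), with sums of 171 in the small intestine, against 484 in the colon, while the glial marker Gfap was at background on both. Of 7 adipocyte markers Cidec was higher by at least 9.35-fold on the small intestine array and Lpl by 4.99-fold on the colon array, with sums of 3549 in the small intestine, against 6769 in the colon. All 10 exocrine pancreas markers were higher in the colon, with sums of 413 in the small intestine, against 62549 in the colon, led by Cela3b (at least 496-fold) and Sycn (at least 446-fold). The part of these cell types in the levels of Tlr1, Tlr2, Tlr4 and Cd14 was not tested.

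The remaining marker lists moved less or towards the small intestine. Of 11 epithelial markers only Vil1 passed, 3.02-fold higher in the small intestine, with sums of 150011 in the small intestine, against 128077 in the colon. Of 8 genes listed for Paneth cells 6 were higher in the small intestine, led by Itln1 and Mmp7 and with Guca2b among them. Nupr1 of the same list was higher in the colon. Whether each listed gene is particular to Paneth cells was not tested. None of 10 endothelial or 6 mesothelial markers reached 3-fold. Above background on either array were 8 of the endothelial and 2 of the mesothelial markers. The endothelial marker Pecam1 and the mesothelial markers Msln, Upk3b and Lrrn4 were at background on both arrays.

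By distance in the plane of both arrays, which over 2 arrays says only that levels were close, the genes nearest to Tlr1 were S100a14 and Gne (0.12 and 0.15 log2 units). Those nearest to Tlr2 were Foxd2 and Thbs4 (0.34 and 0.39), to Tlr4 Cpne8 and Scara5 (0.07 and 0.10), and to Cd14 Smim38 and Col1a1 (0.08 and 0.09). As a measure of technical spread, the differences of several probe sets of 1 gene had a pooled SD of 0.60 over 4142 genes. The difference of Tlr3 was below this value, that of Ly96 was 0.99, and those of the 4 called members were between 1.84 and 3.50 in size. This spread does not include the variation between mice or arrays.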

How the data were processed

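The authors extracted total RNA (Qiagen RNeasy), labelled it with biotin and hybridised it to 1 array per tissue. The deposited values are log2 expression per probe set. The submitters' processing notes name GCRMA, a method that adjusts for probe base content, whereas the study's methods name RMA, and no version is given. GCRMA can widen a fold against a dim value. Values of 45101 probe sets, from 0.73 to 16.97, were used as they stand.

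The platform annotation named the probe sets, and 932 with several genes were left out. The 16 member probe sets matched RefSeq (GRCm38.p6) by Entrez identifier with the same symbol. A gene was represented by its brightest probe set over both arrays. The level of 5 lay above all of 78 olfactory and vomeronasal receptor probe sets (highest 4.78). The fold of 3 was borrowed from the study's RNA-Seq comparison, where it applied to FPKM with a penalty for rare transcripts, and was used here on floored log2 array values. With 1 array per tissue the number of arrays limits the precision. Members and lists were chosen with earlier results of these data known. Named genes are all members, up to 4 called genes per pathway list and up to 2 per marker list, and marker genes at background among the first 3 of a list. Myd88, Ticam1, Ly86, Hsp90b1, Unc93b1, Tlr8, Tlr13, Csf1r, Mrc1, Fabp1, Car1, Nupr1, Guca2b, Reg3b and the target genes at background were added after their values were seen. The procedure was tested on simulated data. Alternatives were other background levels, folds, scalings and choices of probe set. Python 3.11.15 with numpy 2.4.6, pandas 2.3.3 and matplotlib 3.10.9 was used.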

Additional observations from a re-analysis of the deposited data

How the results depend on the processing

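No member was 3-fold higher in the small intestine under any of the 11 alternatives. The number higher in the colon was 4 under 8 of them, 5 without a floor, where Tlr5 (-1.85) was added with both values at background, 3 at 5-fold, which leaves out Cd14, and 3 when probe sets were averaged by their median, where Tlr4 (0) drops out. Over the 9 alternatives that keep the 3-fold rule, the difference ranged from -3.13 to -2.88 for Tlr1, from -4.60 to -2.50 for Tlr2, from -2.95 to 0 for Tlr4 and from -1.84 to -1.59 for Cd14. That of Ly96 ranged from -0.99 to -0.74. The difference of Tlr3 ranged from -0.50 to 0.62, and its sign depended on the probe set. Centring on hybridization spike-ins raised the differences of genes above background on both arrays by 0.25, and those of Tlr2 and Tlr4 by less, to -3.37 and -2.62. The median of the 10 members was 0 by the median of probe sets and -1.42 with no floor. Of 216 list medians under these alternatives 19 moved by more than the pooled SD between probe sets, and 1 changed sign, that of the epithelial markers (-0.01 without probe sets marked _x, _s or _a, against 0.22). Pparg and Saa2 had no value once probe sets marked _x, _s or _a were left out. No paired analysis was possible because each tissue had 1 array and the result comes from no test. Signal near background limits Tlr5, Tlr6, Tlr7 and Tlr9, and the number of arrays limits all values.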
